A study of Mus musculus with 12 samples.

Results

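The genes described here are the 7 cyclin-dependent kinase (CDK) inhibitors of mouse, Cdkn1a, Cdkn1b, Cdkn1c, Cdkn2a, Cdkn2b, Cdkn2c and Cdkn2d, together with Trp53, Mdm2 and Rb1. They were taken by symbol from a fixed list of 10 among the 24054 genes in each library's table. Their RNA was measured in epithelial cells sorted from the prostates of C57BL/6 mice, in 4 groups of 3 libraries: basal cells at 3 months (young basal), basal cells at 24 months (old basal), luminal cells at 3 months (young luminal) and luminal cells at 24 months (old luminal). Cells of 2 mice of equal age were pooled in each library, so the spread within a group is one between pools. No genetic change or treatment is named for any group, and the sources used here do not give the surface markers by which cells were sorted.

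CDK inhibitors bind the kinases that drive a cell through its division cycle. The CIP/KIP proteins p21 (Cdkn1a), p27 (Cdkn1b) and p57 (Cdkn1c) bind complexes of cyclins with several CDKs, while the INK4 proteins p16 (from Cdkn2a), p15 (Cdkn2b), p18 (Cdkn2c) and p19 (Cdkn2d) bind CDK4 and CDK6. When these kinases are held back, the protein of Rb1 stays bound to E2F factors and genes of DNA replication stay off. The transcription factor p53, encoded by Trp53, is a direct activator of Cdkn1a and of Mdm2, and the Mdm2 protein marks p53 for degradation. Much of p53's activity is set at the level of the protein, which RNA does not show. In the prostate, basal cells lie on the basement membrane below the luminal cells, which face the duct and secrete. Loss of Cdkn1b protein, and later of Trp53 and Rb1, is well known in prostate cancer, and Cdkn2a and Cdkn1a are widely used as marks of cell senescence.

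Promoters of 2 genes are shown, because Cdkn1a has a textbook p53 site near one of its starts and Mdm2 is the other p53 target among the 10 genes. They are the 250 bases before a RefSeq start (build GRCm38.p6), 5′ to 3′ on the gene's strand, with the half-sites of p53 matches, by the rule given after them, in capitals. The first belongs to the upstream start of Cdkn1a (chr17:29090729-29090978, plus strand), the next to its downstream start (chr17:29093519-29093768, plus strand), and the last to Mdm2 (chr10:117710759-117711008, minus strand).
Cdkn1a upstream start: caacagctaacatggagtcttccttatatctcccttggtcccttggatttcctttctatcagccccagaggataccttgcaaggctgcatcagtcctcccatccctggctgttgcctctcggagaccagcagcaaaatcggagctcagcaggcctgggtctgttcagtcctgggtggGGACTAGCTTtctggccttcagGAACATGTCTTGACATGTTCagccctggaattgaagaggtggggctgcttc
Cdkn1a downstream start: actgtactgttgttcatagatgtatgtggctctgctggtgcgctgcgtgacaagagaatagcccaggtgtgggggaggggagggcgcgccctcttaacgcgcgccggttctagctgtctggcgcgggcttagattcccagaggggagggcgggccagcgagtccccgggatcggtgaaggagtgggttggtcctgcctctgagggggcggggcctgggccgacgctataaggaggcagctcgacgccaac
Mdm2: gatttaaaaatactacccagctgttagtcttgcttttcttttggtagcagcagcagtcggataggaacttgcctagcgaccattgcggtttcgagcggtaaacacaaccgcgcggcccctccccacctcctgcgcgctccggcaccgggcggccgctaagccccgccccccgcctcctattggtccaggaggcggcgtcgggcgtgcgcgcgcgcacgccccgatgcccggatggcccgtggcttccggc

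A site was counted where 2 copies of the p53 consensus half-site, each 10 bases long, lay 0 to 13 bases apart with at most 1 mismatch in all and with the fixed C and G of each half-site kept. That consensus reads the same on both strands, and the rule was set with the Cdkn1a site known. Of the 10 genes, 8 had RefSeq windows, 11 windows in all (not Cdkn1c or Rb1), and 1 of the 11, at the upstream start of Cdkn1a, held a match. It held 2 overlapping matches that share the half-site GAACATGTCT, which begins 51 bases before the start. In one, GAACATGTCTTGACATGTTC, this half-site touches the next one, with 1 mismatch. In the other it pairs with GGACTAGCTT, which begins 73 bases before the start and is separated from it by 12 bases, with 0 mismatches. Of all 32851 windows of this length, 0.505% held a match by the same rule, 0.0578% held one without a gap and 0.0639% held one with 0 mismatches. Only the 250 bases before each start were searched, so a window without a match, as for Mdm2, does not show that the gene lacks a p53 site. Sites further away or within the gene were not looked for. A match is a description of the letters, and these data hold no measurement of p53 binding.

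The genes lie on 8 chromosomes of the mouse genome (build GRCm38, GENCODE M21 annotation) and all are annotated as protein coding. Cdkn1a covers chr17:29090976-29100727 on the plus strand, Cdkn1b chr6:134920401-134925513 (plus) and Cdkn1c chr7:143458339-143461050 (minus). Cdkn2a (chr4:89274471-89294653) and Cdkn2b (chr4:89306299-89311039) are neighbours on the minus strand, Cdkn2c lies elsewhere on that chromosome (chr4:109660876-109667189, minus), and Cdkn2d is at chr9:21288410-21291407 (minus). Trp53 covers chr11:69580359-69591873 (plus), Mdm2 chr10:117688875-117710758 (minus) and Rb1 chr14:73183673-73325822 (minus). Cdkn2a encodes both p16 and, from another start, p19ARF, a protein that binds Mdm2, and counts per gene cannot separate them. In RefSeq's annotation Cdkn2b lies within the antisense RNA Gm12610, which has no row in the tables, and Rb1 overlaps Lpar6, on the other strand, over 2468 bases. The sources used here do not say whether counting used the strand, so Gm12610 reads could be counted for Cdkn2b, and reads of the Rb1 and Lpar6 overlap for either gene.

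The 12 libraries held 20012668 to 27663428 counted reads, but these stood for far fewer distinct molecules, about 378951 to 1443424 fragments per library with 16 to 73 reads each. A gene was therefore called too low to measure in a group where its mean was under the level of 3 fragments over the 3 libraries, which is 2.26 CPM (the count scaled to the library's normalized total) for basal cells at 3 months, 1.03 for basal cells at 24 months, and 1.22 and 1.57 for luminal cells at those ages. Basal keratin Krt5 stood in luminal libraries at 0.324% (young) and 0.437% (old) of its mean in basal libraries, and all 9 basal and all 9 luminal markers differed between the cell types in the labelled direction at both ages. Summed over 9 secretory genes of the seminal vesicle, luminal libraries held 133008 to 219068 CPM and basal libraries 812 to 2175 CPM. Summed leukocyte markers were low, with 9 to 11 of 15 genes at 0 in each group, but higher in old libraries without overlap: 8.95 to 13.01 CPM in young and 16.0 to 27.9 CPM in old basal, and 5.24 to 10.7 CPM in young and 15.5 to 22.4 CPM in old luminal libraries. The part of these other cells in the results below was not tested. Values are means ± SD over n = 3 libraries of normalized CPM unless TPM, which also divides by transcript length, is named.

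Per length, Cdkn1a was the most abundant of the 10 genes in each of the 4 groups, with 538 ± 43.2 (young) and 668 ± 50.9 TPM (old) in basal cells and 68.1 ± 7.64 (young) and 148 ± 34.3 TPM (old) in luminal cells. Averaged over the ages, it made up 94.1% of the summed TPM of the 7 CDK inhibitor genes in basal cells and 64.1% in luminal cells. In both basal groups the order then ran Trp53 (137 ± 34.9 TPM young, 96.0 ± 12.3 old), Mdm2 (45.4 ± 4.84 and 47.0 ± 3.74) and Cdkn1c (22.1 ± 8.95 and 21.3 ± 1.70), and none of these neighbours overlapped in its libraries. Below them Cdkn1b and Rb1 overlapped in TPM at both ages in basal cells, so their order is not fixed there. In luminal cells Mdm2 followed Cdkn1a (36.5 ± 2.41 TPM young, 33.0 ± 3.87 old). Trp53 came next with 27.7 ± 9.89 and 29.5 ± 2.44 TPM, and its libraries overlapped those of Mdm2 at both ages. The order of the top genes thus differed between the cell types in these libraries: Trp53 was above Mdm2 in all 6 basal libraries, and the pair overlapped in luminal cells. In old luminal cells neighbours in the order from Cdkn1c through Cdkn1b, Cdkn2c, Cdkn2b and Cdkn2d to Rb1 all overlapped, at means of 18.1 to 6.30 TPM. TPM shares are affected by the large secretory transcripts of luminal cells, so tests between groups used normalized counts.

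**Figure D1:**
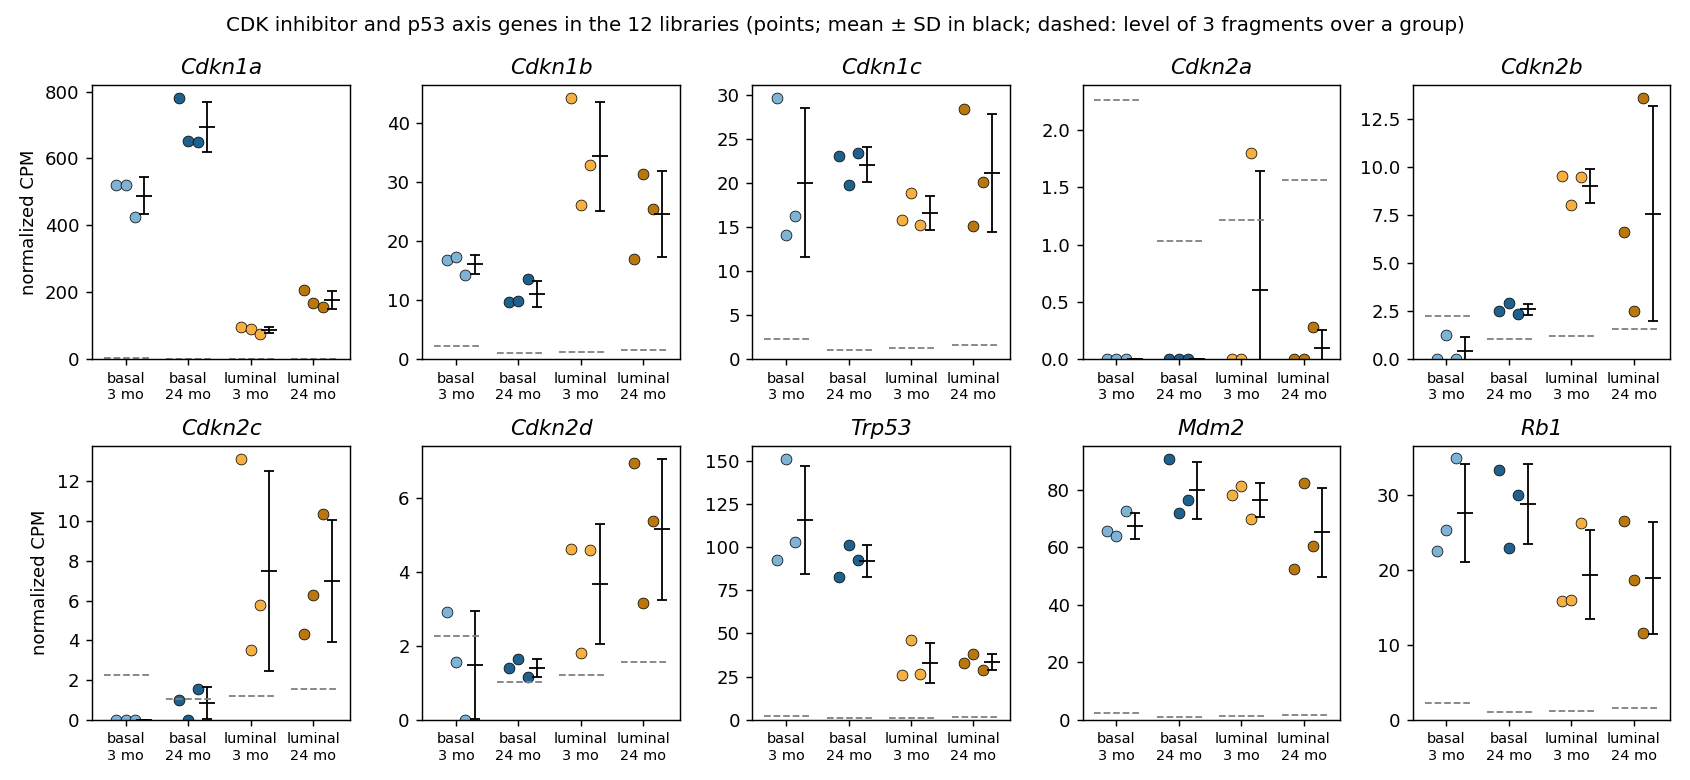
Normalized CPM of the 10 genes in every library (points), with mean ± SD of the 3 libraries of a group in black and the level of 3 fragments over a group as a dashed line; each panel has its own linear axis from 0, and error bars that would run below 0 end there. Cdkn1a and Trp53 stand higher in the 6 basal libraries than in the 6 luminal libraries, and Cdkn2a stays under the dashed line in its mean in all 4 groups.

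Cdkn1a, the p21 gene, differed most clearly between the cell types. Young basal libraries held 520.2, 521.5 and 425.5 CPM and young luminal libraries 94.8, 90.5 and 75.6 CPM. Old basal libraries held 781, 653 and 648 CPM and old luminal libraries 207, 166 and 155 CPM. The highest luminal library thus lay under the lowest basal library at both ages. In such pools, fewer cells with the RNA and less RNA per cell cannot be told apart. In edgeR's quasi-likelihood test, luminal cells were 5.62-fold lower at 3 months (95% interval 4.51 to 7.01, adjusted p = 7.62e-09) and 3.94-fold lower at 24 months (3.18 to 4.89, adjusted p = 8.23e-08). Summed fibroblast and smooth muscle markers, 12 genes, were also higher in basal libraries, at 1586 to 1842 CPM (young) and 1315 to 1461 CPM (old), against 236 to 471 CPM and 98.8 to 157 CPM in luminal libraries. So were 9 endothelial markers, at 31.9 to 54.9 CPM and 38.5 to 49.2 CPM against 5.14 to 9.36 CPM and 7.42 to 13.2 CPM. The part of these cells in the basal levels of Cdkn1a, and of Trp53 below, was not tested. The Cdkn1a values rest on about 675 (young) and 2282 (old) fragments over the basal libraries and 216 (young) and 338 (old) over the luminal ones.

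In luminal cells Cdkn1a rose with age. Each of the 3 old luminal libraries (155 to 207 CPM) was above each of the 3 young ones (75.6 to 94.8 CPM), and the means were 176 ± 27.5 against 87.0 ± 10.1 CPM. The fitted rise was 2.02-fold, with a 95% interval of 1.64 to 2.50 (log2 1.02 ± 0.14 SE, edgeR adjusted p = 0.00163). It was the 1 gene called among the 9 that could be tested, where 1.65% of all 14201 tested genes were called in this comparison, and the 1 whose libraries did not overlap, where 18.3% of all tested genes did not. It was called under all 14 alternative settings and left-out libraries, with log2 values of 0.89 to 1.10 and adjusted p up to 0.0114.

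Basal markers moved the same way between the 2 luminal groups: 2 of the 9, Krt15 and Col17a1, were called higher with age, and their sum ran from 646 to 750 CPM in young and from 874 to 1361 CPM in old luminal libraries, against 17420 to 20888 CPM in basal libraries. No basal marker was at 0 in all luminal libraries of an age. Old luminal Krt5 and Krt14 stood at 0.437% and 0.742% of their old basal means, and Col17a1 at 0.381%, while Cdkn1a stood at 25.4%. In young luminal cells the shares were 0.324%, 0.526%, 0.0732% and 17.8%. Shares of the other markers of the 9 are not given here. At both ages the luminal sum of all 9 was a larger share of the basal sum than these single markers show. The fibroblast and smooth muscle sum was lower in old luminal libraries, and the leukocyte sum was higher in old libraries of both cell types, with the values given above. Of the 9 seminal vesicle genes, 2 were called higher with age in luminal cells, with a median log2 of 4.43 over the 9. Their luminal sums overlapped, at 149459 to 173851 CPM (young) and 133008 to 219068 CPM (old). The part of other cells in the Cdkn1a values with age was not tested.

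In basal cells Cdkn1a was also higher in old libraries, but the difference did not pass the test. The means were 694 ± 75.2 against 489 ± 55.0 CPM, and the lowest old library (648 CPM) was above the highest young one (521.5 CPM). The fitted ratio was 1.42-fold, with a 95% interval of 1.15 to 1.75 (log2 0.51 ± 0.14 SE, edgeR adjusted p = 0.0979, unadjusted 0.00284). DESeq2 called it (adjusted p = 0.0395), and over the other settings without a replicate block the edgeR or limma adjusted p ran from 0.0565 to 0.457, the last without old basal replicate 1. None of the 9 tested genes was called between old and young basal cells in edgeR, where 1.24% of all tested genes were called. At an unadjusted p under 0.05 there were 2, Cdkn1a and Cdkn2c, and DESeq2 called the same 2. Of all 14201 tested genes, 2013 had an unadjusted p under 0.05 and DESeq2 called 774. Cdkn2c was too low to measure in both basal groups (0 CPM young, 0.854 CPM old), so its value is no measured rise. Libraries of 3 of the 9 did not overlap (Cdkn1a and Cdkn2b higher, Cdkn1b lower), against 19% of all tested genes.

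The age responses of Cdkn1a in the 2 cell types were then compared. The luminal log2 change exceeded the basal one by 0.51 ± 0.20 (SE), with a 95% interval of 0.09 to 0.94 and an edgeR adjusted p of 0.306 (unadjusted p = 0.0217), so a difference was not called. DESeq2 called it (adjusted p = 0.0245). Of the 9 tested genes, 0 were called for this difference in edgeR, where 0.817% of all tested genes were. At an unadjusted p under 0.05 there were 2 (Cdkn1a and Cdkn2c), against 1721 of all 14201 tested genes. DESeq2 called the same 2, against 640 of all tested genes. Cdkn2c was under the limit in both basal groups, so its basal change was not measured. Comparisons of age and of cell type share libraries with each other, so their values stand side by side here and are not independent.

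Cdkn1b, the p27 gene, ran the opposite way to Cdkn1a between the cell types. Young luminal libraries held 44.3, 26.03 and 32.8 CPM and young basal ones 16.7, 17.3 and 14.2 CPM. At 24 months luminal libraries held 17.0, 31.3 and 25.4 CPM and basal ones 9.71, 9.87 and 13.55 CPM. All luminal libraries were above all basal libraries of the same age. Luminal cells were 2.14-fold higher at 3 months (95% interval 1.30 to 3.51, edgeR adjusted p = 0.0172) and 2.22-fold higher at 24 months (1.35 to 3.66, adjusted p = 0.0140). The call at 3 months was lost on TPM (limma adjusted p = 0.103), without young luminal replicate 1 (0.101) and without young basal replicate 3 (0.050005), and that at 24 months without old basal replicate 1 (0.0528) or old luminal replicate 2 (0.0527), in edgeR. Only about 22.2 fragments stood behind the young basal mean and 85.2 behind the young luminal mean.

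With age Cdkn1b was lower on average in both cell types, and neither difference passed the test. The fitted log2 values were -0.54 ± 0.33 in basal cells (edgeR adjusted p = 0.495), where the 3 old libraries lay under the 3 young ones, and -0.48 ± 0.33 in luminal cells (adjusted p = 0.711), where they overlapped. Cdkn1c, the p57 gene, an imprinted inhibitor, was measurable in all 4 groups at a similar level: 20.02 ± 8.43 CPM (young) and 22.1 ± 1.98 CPM (old) in basal, and 16.6 ± 1.93 CPM (young) and 21.1 ± 6.69 CPM (old) in luminal cells. The libraries overlapped in each comparison of cell type and of age. Its log2 difference between luminal and basal cells was -0.27 at 3 months, with a 95% interval of -1.05 to 0.51 that leaves room for a change by a factor of 2 in the lower direction.

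The INK4 genes were scarce. Cdkn2a had no read in any of the 6 basal libraries, 1.80 CPM in young luminal replicate 3, 0.283 CPM in old luminal replicate 3 and 0 in the other 4 luminal libraries. Its mean was under the level of 3 fragments in all 4 groups and it failed the count filter, so no fold and no test can be given, and these libraries allow up to 2.26 CPM in young basal and 1.57 CPM in old luminal cells. Whether p16 or p19ARF RNA changed with age was not detectable at this depth.

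Cdkn2b, Cdkn2c and Cdkn2d were each measurable in luminal cells and near or under the limit in basal cells. For Cdkn2b, the p15 gene, young luminal libraries held 9.51, 7.997 and 9.49 CPM and young basal libraries 0, 1.24 and 0 CPM. That luminal mean was 3.98 times the young basal limit of 2.26 CPM, and the difference was called at 3 months (edgeR adjusted p = 0.0344). The call was lost when only those 2 groups were fitted (0.106) and without young basal replicate 1 (0.0508) or 3 (0.0561) or young luminal replicate 1 (0.0688), 2 (0.0628) or 3 (0.0683), all in edgeR. At 24 months Cdkn2b overlapped, with 2.50, 2.89 and 2.36 CPM in basal and 6.62, 2.52 and 13.6 CPM in luminal libraries (log2 1.55 ± 1.36, edgeR adjusted p = 0.425).

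Cdkn2c, the p18 gene, had 0 reads in the 3 young basal libraries and 13.1, 3.49 and 5.80 CPM in the young luminal ones. The mean of these luminal libraries was 3.31 times the young basal limit of 2.26 CPM, and the difference was called (edgeR adjusted p = 0.00181). Old basal libraries held 0.989, 0 and 1.57 CPM, a mean still under the limit, and old luminal libraries 4.32, 6.29 and 10.4 CPM. The old groups did not overlap, and the difference was not called in edgeR (adjusted p = 0.129). It was called in DESeq2 (adjusted p = 0.0214), on TPM (limma, 0.00452) and on fragment-equivalent counts (edgeR, 0.00665). For Cdkn2d, the p19INK4d gene, luminal libraries held 4.63, 1.79 and 4.60 CPM at 3 months and 6.94, 3.15 and 5.37 CPM at 24 months. Basal libraries held 2.92, 1.55 and 0 CPM and 1.41, 1.63 and 1.16 CPM at those ages. The young basal mean of 1.49 CPM was under the limit, so Cdkn2d was too low to measure in that group. The old groups again did not overlap, and neither age gave a call (edgeR adjusted p = 0.516 at 3 months and 0.349 at 24 months). On fragment-equivalent counts Cdkn2d and Cdkn2b were called at 24 months (edgeR adjusted p = 0.0388 and 0.0247). Cdkn2c passed the count filter through its luminal libraries and had 0 reads in young basal ones. A call at 3 months could thus only be higher in luminal cells, and its adjusted p is no support for that direction. Cdkn2b did not pass through its young basal libraries, so its being higher in luminal cells at 3 months is partly a matter of which genes could be tested.

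Within luminal cells none of the 3 was called with age. The means were 9.001 ± 0.870 and 7.57 ± 5.59 CPM for Cdkn2b, 7.48 ± 5.04 and 6.99 ± 3.08 for Cdkn2c, and 3.67 ± 1.63 and 5.15 ± 1.91 for Cdkn2d in young and old cells, each with an edgeR adjusted p of 1. At 14.2 to 22.2 fragments per group for the first 2, these libraries could show only large changes. In basal cells Cdkn2b was under the limit in young (0.414 CPM) and above it in old cells (2.58 ± 0.278 CPM), with no overlap and an edgeR adjusted p of 0.422. These limits differ, at 2.26 CPM in young and 1.03 CPM in old basal cells. The old mean was only 1.14 times the young limit, so no rise was measured. Without young basal replicate 2, the one young basal library with reads, Cdkn2b was called (edgeR adjusted p = 0.0148). That fit leaves the young group without reads.

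Trp53, the p53 gene itself, was higher in basal cells. Young basal libraries held 92.4, 151 and 103 CPM against 26.2, 46.4 and 26.2 CPM in young luminal ones, and old basal libraries 82.5, 101 and 92.8 CPM against 32.7, 38.1 and 28.8 CPM in old luminal ones. The lowest basal library was above the highest luminal library at each age. Luminal cells were 3.51-fold lower at 3 months (95% interval 2.43 to 5.07, edgeR adjusted p = 3.39e-05) and 2.77-fold lower at 24 months (1.93 to 3.99, adjusted p = 0.000232). Against its basal level, luminal Trp53 thus stood at 28.5% in young and 36.0% in old cells. With age Trp53 was not called in either cell type: the log2 difference was -0.33 in basal cells (95% interval -0.84 to 0.19) and 0.01 in luminal cells (-0.51 to 0.53).

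Mdm2, the ubiquitin ligase that holds p53 down, was at a similar level in all 4 groups. Its libraries held 65.7, 63.9 and 72.6 CPM (young basal), 90.7, 72.0 and 76.4 CPM (old basal), 78.2, 81.2 and 69.7 CPM (young luminal), and 52.5, 82.2 and 60.5 CPM (old luminal). All comparisons overlapped and none was called in edgeR. The 95% intervals bound the log2 difference between luminal and basal cells to -0.20 to 0.56 at 3 months and -0.67 to 0.09 at 24 months, and the luminal age difference to -0.61 to 0.15. In luminal cells, where Cdkn1a rose 2.02-fold with age, the fitted Mdm2 difference was -0.23 ± 0.18 (adjusted p = 0.781). On TPM the difference between cell types at 3 months turned to log2 -0.31 and that at 24 months was called (limma adjusted p = 0.0153).

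Rb1, the retinoblastoma gene, showed no called difference in edgeR. Its libraries held 22.4, 25.3 and 34.8 CPM (young basal), 33.3, 22.9 and 30.0 CPM (old basal), 15.9, 15.9 and 26.2 CPM (young luminal), and 26.5, 18.6 and 11.5 CPM (old luminal). Luminal means were lower by 0.51 ± 0.36 on the log2 scale at 3 months and by 0.61 ± 0.36 at 24 months (edgeR adjusted p = 0.285 and 0.211), with overlap at both ages. On TPM the difference at 3 months was called (limma adjusted p = 0.0480). Its age differences were near 0 in both cell types, 0.06 ± 0.36 in basal and -0.04 ± 0.36 in luminal cells.

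Counted together, 5 of the 9 tested genes were called between luminal and basal cells at 3 months (Cdkn1b, Cdkn2b and Cdkn2c higher in luminal, Cdkn1a and Trp53 lower), where 37.6% of all tested genes were called. Of these, Cdkn2b and Cdkn2c were under the limit in young basal cells, and the filter fixed the direction for Cdkn2c. At 24 months 3 were called (Cdkn1b higher, Cdkn1a and Trp53 lower), where 35.4% of all tested genes were. Libraries of 5 of the 9 did not overlap at each age, against 51.6% of all tested genes at 3 months and 53.1% at 24 months. The shares without overlap are near that of genes at large, so the counts say nothing particular about these 9 genes. Of the 9, 6 were above the limit in both groups at 3 months and 8 at 24 months.

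**Figure D2:**
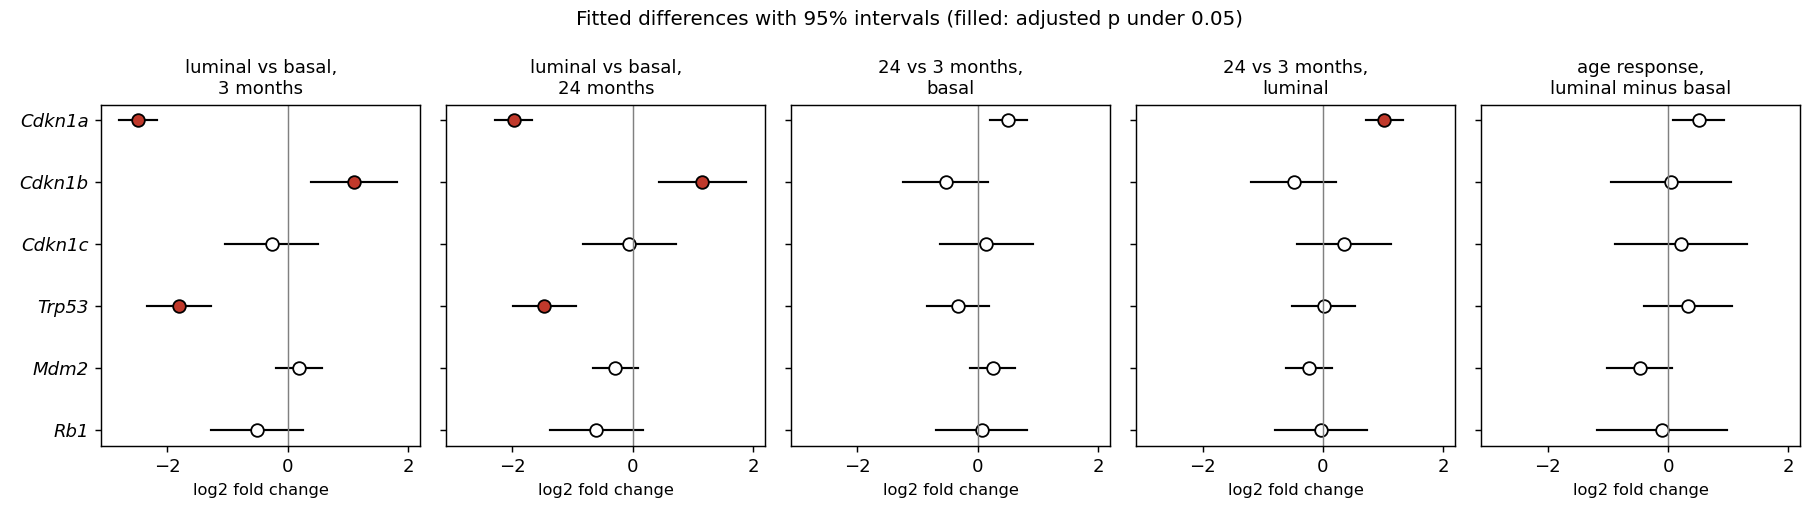
Fitted log2 fold changes (points) with 95% intervals (lines) for the 6 genes above the level of 3 fragments in all 4 groups, in each of the 5 comparisons; filled points have an adjusted p under 0.05. Cdkn1a is filled in both cell type comparisons and for age in luminal cells (log2 1.02), and the intervals of Mdm2 and Rb1 cross 0 in every panel.

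The 25 listed regulators of p53 activity, kinases, acetyltransferases and relatives of p53, were mostly lower in luminal cells where they differed. Of 24 tested, 1 was called higher and 10 lower at 3 months (where 19% and 18.6% of all tested genes were called higher and lower), and 1 and 11 at 24 months (against 15.7% and 19.7%). The list's median log2 was -0.28 against 0.19 for all tested genes at 3 months (-0.28 and -0.16 with means under the limit raised to it), and -0.57 against 0.00 at 24 months (-0.57 and 0.24). Ppp1r13l (iASPP), an inhibitor of p53, was lower in luminal cells at both ages, by log2 values of -1.79 at 3 months and -2.0962 at 24 months. The acetyltransferase gene Crebbp was lower by 1.47 and 1.66, Ep300 by 1.22 at 3 months, and Usp7, a deubiquitinase of Mdm2 and p53, by 1.27 at 24 months, all called in edgeR. Trp63, the p53 relative that marks basal cells, averaged 57.1 CPM in young basal and 36.4 CPM in old basal cells and was under the limit in both luminal groups. With age 0 of the 24 were called in either cell type in edgeR. At an unadjusted p under 0.05 there were 4 in each, and DESeq2 called 1 in each. Of all 14201 tested genes, 2013 (basal) and 1526 (luminal) had such a p, and DESeq2 called 774 and 731.

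Of 45 listed target genes of p53, in luminal cells 8 were called higher and 10 lower at the younger age, and 5 and 12 at the older age. Of all tested genes, 19% were called higher and 18.6% lower at 3 months, and 15.7% and 19.7% at 24 months. The medians were 0.31 and 0.06 (0.14 and 0.06 with means raised to the limit), against 0.19 and 0.00 for all tested genes (-0.16 and 0.24). The called targets thus went both ways, as did called genes at large. The called targets with the smallest p were mostly genes that, like Cdkn1a, were lower in luminal cells. They were Sfn, the 14-3-3 sigma gene, lower by 3.98 on the log2 scale at 3 months and 2.97 at 24 months, Ier5 by 3.29 and 2.76, Perp, a desmosomal gene, by 2.43 and 2.25, and the death receptor gene Tnfrsf10b by 3.00 at 3 months. Dcxr, a carbonyl reductase gene, was higher in luminal cells by 2.41 at 24 months. Each had an adjusted p under 0.05 in edgeR.

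With age, 1 of the 45 targets was called in basal cells and 2 in luminal cells, all higher, where 1.01% (basal) and 1.26% (luminal) of all tested genes were called higher, and 0.225% and 0.394% lower. In basal cells it was Gadd45a, a stress gene of DNA repair and growth arrest, with 77.0 ± 15.1 CPM in young and 187 ± 31.5 CPM in old cells (edgeR log2 change 1.28 ± 0.20, adjusted p = 0.00481). In luminal cells Sfn rose from 214 ± 11.2 to 514 ± 142 CPM (a log2 change of 1.26 ± 0.17, edgeR adjusted p = 0.00150) and Ier5 from 62.3 ± 3.20 to 136 ± 38.4 CPM (log2 1.13 ± 0.17, adjusted p = 0.00251). In basal cells Sfn and Ier5 were also higher on average with age but uncalled in edgeR (log2 0.25 and 0.60). Sfn and Ier5, like Cdkn1a, had higher levels in basal cells, and the basal marker sum given above was also higher in old luminal libraries. Perp and Tnfrsf10b, also named above as lower in luminal cells, were not called with age there (log2 0.02 and 0.42). The part of other cells in these values was not tested. The median over all 45 targets was 0.04 in both cell types, against 0.09 for all genes in basal and -0.02 in luminal cells (-0.09 and 0.04 with means raised to the limit, against -0.08 and 0.06). Apart from these genes, the targets did not pass edgeR's test for age. At an unadjusted p under 0.05 there were 9 (basal) and 7 (luminal) of the 45, and DESeq2 called 5 in each. Among all 14201 tested genes, 2013 (basal) and 1526 (luminal) had such a p, and DESeq2 called 774 and 731.

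Few genes of the RB family and its E2F and DREAM partners were called. Of 20 tested, luminal cells had 0 higher and 3 lower at 3 months, and 0 and 5 at 24 months, against 19% higher and 18.6% lower, and 15.7% and 19.7%, of all tested genes. The medians were -0.25 and -0.78, against 0.19 and 0.00 for all tested genes (-0.47 and -0.46 with means raised to the limit, against -0.16 and 0.24). Rbbp7, a histone-binding partner of RB, was lower by 0.63 and 0.88, and Rbbp4, its close relative, by 0.56 at 24 months. Tfdp1, the E2F dimer partner, was lower by 0.80 and 0.75. That call was lost in edgeR without young luminal replicate 1 (adjusted p = 0.0597) or 3 (0.0598) at 3 months, and without old basal replicate 1 (0.0549) or 3 (0.0588) or old luminal replicate 2 (0.0930) at 24 months. E2f3 at 3 months (lower by 2.54) lost its call without young basal replicate 2 (0.0602) or young luminal replicate 1 (0.0549), and E2f4 at 24 months (lower by 0.81) without old basal replicate 1 (0.0513). With age 0 of the 20 were called in edgeR in either cell type, with 1 (basal) and 2 (luminal) at an unadjusted p under 0.05 and 0 in DESeq2. Over all 14201 tested genes, 2013 (basal) and 1526 (luminal) had such a p, and DESeq2 called 774 and 731.

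Among 17 tested cyclins, CDKs and their activators, luminal cells had 2 higher and 1 lower at 3 months and 1 and 3 at 24 months, against 19% and 18.6%, and 15.7% and 19.7%, of all tested genes. The medians were 0.68 and -0.10, against 0.19 and 0.00 for all tested genes (0.61 and 0.52 with means raised to the limit, against -0.16 and 0.24). Ccnd2, cyclin D2, a partner of CDK4 and CDK6, was lower in luminal cells by 5.15 on the log2 scale at 3 months and by 3.25 at 24 months. Cdc25a, the phosphatase that activates CDK2, was higher by 1.79 and 2.40. Ccnd3 was higher by 0.76 at 3 months, a call lost on TPM (limma adjusted p = 0.301). Cdk2 was lower by 1.49 at 24 months, a call lost without old basal replicate 2 (edgeR adjusted p = 0.0503). Cdk4 was lower by 0.63 at 24 months (edgeR adjusted p = 0.0386), and this call was lost under 10 of 14 alternatives, with adjusted p of 0.0853 to 0.150 without old basal replicate 1, 2 or 3 or old luminal replicate 1 or 3.

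With age, 2 of the 17 were called in luminal cells, where 1.65% of all tested genes were, and they went in opposite directions. Ccnd1, cyclin D1, fell, at 511 ± 74.6 CPM in young and 229.9 ± 16.5 CPM in old cells (edgeR log2 change -1.15 ± 0.18, adjusted p = 0.00313), and Ccnd2 rose from 6.85 ± 3.14 to 25.9 ± 3.89 CPM (log2 1.91 ± 0.26, adjusted p = 0.00128). In basal cells 0 of the 17 were called in edgeR, with 3 at an unadjusted p under 0.05 and 2 called by DESeq2. The same 2 counts over all 14201 tested genes were 2013 and 774. Basal Ccnd1 was also lower on average in old cells, at 399 ± 46.0 CPM in young and 247 ± 71.1 CPM in old cells (log2 -0.69, uncalled in edgeR). Basal Ccnd2 was 244 ± 30.3 CPM in young and 246 ± 23.5 CPM in old cells, and the difference of its age responses was called (log2 1.90 ± 0.35, edgeR adjusted p = 0.0232). Ccnd2 thus had higher levels in basal cells, and the basal marker sum given above was also higher in old luminal libraries. The part of other cells in its luminal values was not tested.

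Proliferation genes were low in all groups, with summed levels of 504 to 610 CPM over 30 genes in basal libraries, 381 to 442 CPM in young luminal and 244 to 276 CPM in old luminal ones. At each age luminal cells had 2 of the 30 higher and 6 lower, where all tested genes had 19% and 18.6% at 3 months and 15.7% and 19.7% at 24 months. Those lower included Pcna (log2 -1.28 and -1.78) and Mcm4 (-1.81 and -1.49), which act at the replication fork. Mcm6 (-1.48) and Cdt1 (-2.32) were lower at 3 months, and Hmgb2 (-1.48) and Stmn1 (-2.25) at 24 months. The medians were 0.81 and -0.53 (0.19 and 0.00 over all tested genes), and -0.07 and -0.04 with means raised to the limit (-0.16 and 0.24), so the sign of the median at 3 months depended on genes with under 3 fragments. In old luminal cells the median against young was -0.83 (-0.77 with means raised to the limit), while 1 of the 30 was called. That was Stmn1 (26.9 ± 10.6 CPM in young, 11.6 ± 2.96 CPM in old cells, edgeR adjusted p = 0.0392), whose call was lost without young luminal replicate 2 (0.204) or old luminal replicate 1 (0.121) or 3 (0.107), and with only the 2 groups fitted (0.113). At an unadjusted p under 0.05 there were 6, and DESeq2 called 3, against 1526 and 731 of all 14201 tested genes. In basal cells 0 of the 30 were called in edgeR. There, 5 had an unadjusted p under 0.05 and DESeq2 called 4, against 2013 and 774 of all 14201 tested genes.

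Of 30 tested genes known to act on CDK inhibitor genes or proteins, luminal cells had 5 called higher and 16 lower at 3 months (19% and 18.6% of all tested genes) and 5 and 17 at 24 months (15.7% and 19.7%). The medians were -0.73 and -0.62, against 0.19 and 0.00 for all tested genes (-0.73 and -0.63 with means raised to the limit, against -0.16 and 0.24). The Id genes encode inhibitors of helix-loop-helix factors, which activate Cdkn1a. Id1 was lower by 3.11 and 2.22 on the log2 scale, Id2 by 3.07 and 2.87, and Id3 by 2.65 and 2.84 at 3 and 24 months. Ets1, a transcription factor gene, was lower by 6.32 and 5.22. These 4 kept their calls under every alternative.

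With age 1 of the 30 was called in basal and 3 in luminal cells in edgeR, where 1.24% and 1.65% of all tested genes were called. Basal Myc, whose protein represses Cdkn1a, was 427 ± 36.2 CPM in young and 605 ± 60.2 CPM in old cells (log2 0.50 ± 0.11, edgeR adjusted p = 0.0345). That call was lost under 10 of 14 alternatives (adjusted p up to 0.269), including without young basal replicate 1 (0.0861) or 3 (0.0770) and without old basal replicate 1 (0.233), 2 (0.143) or 3 (0.0504). In luminal cells Ets2, Id1 and Tbx2 were called, and each lost its call without several single libraries. Ets2 went from 585 ± 27.5 to 841 ± 131 CPM (adjusted p = 0.0367), and without young luminal replicate 1, 2 or 3 or old luminal replicate 1 or 2 the edgeR adjusted p was 0.0873, 0.0623, 0.154, 0.165 and 0.0814. Id1 went from 117 ± 2.00 to 170 ± 22.3 CPM (adjusted p = 0.0440), and without young luminal replicate 1, 2 or 3 or old luminal replicate 2 or 3 it was 0.120, 0.0743, 0.157, 0.140 and 0.0941. Tbx2, a repressor of Cdkn1a and Cdkn2a, went from 115 ± 19.1 to 49.2 ± 16.2 CPM (adjusted p = 0.0261), and without young luminal replicate 1 or 3 or old luminal replicate 1 or 2 it was 0.0701, 0.133, 0.0947 and 0.0902. Id1 had higher levels in basal cells, and the part of other cells in its luminal values was not tested.

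**Figure D3:**
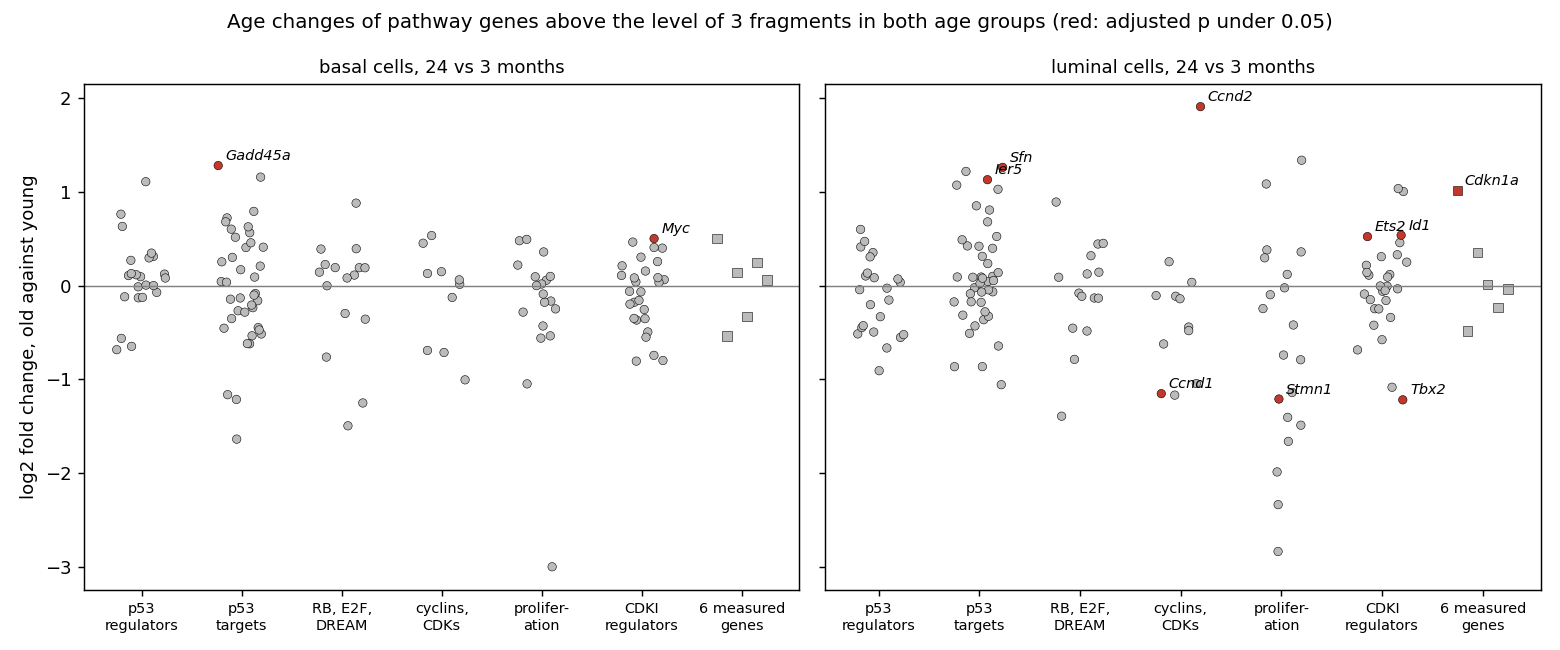
Log2 fold change from 3 to 24 months of each listed pathway gene whose mean was above the level of 3 fragments in both age groups (circles) and of the 6 measured CDK inhibitor, p53, Mdm2 and Rb1 genes (squares), in basal cells (left) and luminal cells (right); red marks an adjusted p under 0.05, and the sideways spread of points has no meaning. In luminal cells Cdkn1a, Sfn, Ier5 and Ccnd2 lie above 0 in red and Ccnd1 below 0, and in basal cells the 2 red points are Gadd45a and Myc.

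The genes whose levels over the 12 libraries were most like each measured gene were ranked by the root mean square difference of log2 CPM, after centring each gene on its own mean, among 6269 genes (6270 for Cdkn1c) with a mean of at least 20 CPM. For Cdkn1a they were Foxc1 (0.165), the receptor gene Tnfrsf12a (0.169) and the tubulin gene Tuba1c (0.186). Tnfrsf12a, for example, had means of 782 and 1085 CPM in young and old basal and 175 and 300.4 CPM in young and old luminal cells. For Trp53 they were Tnks2 (0.185), Col7a1 (0.196) and B3gnt2 (0.197), and for Cdkn1b Idh2 (0.224), Ring1 (0.255) and Setd1b (0.256). Cdkn1c came closest to Mul1 (0.184), Akt2 (0.203) and Wasl (0.206), Mdm2 to Stk11 (0.140), Ncoa6 (0.141) and Lcn2 (0.147), and Rb1 to Ylpm1 (0.228), 2310022B05Rik (0.228) and Wnk1 (0.231). The libraries share cell type, age and depth, so likeness here mostly means a similar difference between the 4 groups.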

How the data were processed

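RNA from frozen pellets of sorted prostate cells (RNeasy Mini kit, KAPA Stranded mRNA-Seq kit, an Illumina HiSeq instrument, per the labels) was sequenced in 12 libraries. The submitters' processing notes name bcl2fastq 2.17, Bowtie2 2.1.0, RSEM 1.2.15 and the build mm10. The deposited tables hold RSEM expected counts and TPM for 24054 genes, per the file headers. FPKM were not used here.

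Expected counts were rounded to whole numbers. Genes passing edgeR's filterByExpr (minimum count 10, minimum total 15), 14201 in all, were fitted with TMM scaling in one quasi-likelihood model (edgeR 4.0.16, R 4.3.3) with a mean per group over all 12 libraries. The common biological coefficient of variation was 0.797. The 5 comparisons were luminal against basal at each age, old against young in each cell type, and the difference of the age responses. A gene was called at a Benjamini-Hochberg adjusted p under 0.05 over all tested genes. The SE was derived as the absolute log2 fold change divided by the square root of the test's F value. Intervals of 95% use this SE with a t quantile, so both are approximate.

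Reads per fragment were estimated per library as the median count of genes over 500 bases long seen in 1 library of its group with at least 8 reads and in at most 3 libraries outside it. A floor of 3 fragments over a group marks what could be measured, and it covers counting error only.

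All 10 genes were named in every comparison, with up to 4 called genes per pathway list and comparison by smallest p, if the higher group averaged 5 CPM or more, and the 3 most similar genes. The genes and lists were chosen with earlier results of these data known. No set test was run, and lists are given as counts beside all genes. Alternatives were RLE factors, no filter, at least 10 CPM in 3 libraries, DESeq2 1.42.0, the 2 groups alone, limma 3.58.1 on log2(TPM + 1), fragment-equivalent counts (minimum count 3, minimum total 10, 11201 genes), a replicate block, and each library left out.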

Additional observations from a re-analysis of the deposited data

Results flagged for a closer look

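For 3 genes of the pathway lists the change with age differed between luminal and basal cells by edgeR's test of the difference itself. Ccnd2, the cyclin D2 gene, rose in luminal cells and not in basal cells, with a difference of 1.90 ± 0.35 on the log2 scale (adjusted p = 0.0232). Id1 went from 1014 ± 37.6 to 796 ± 122 CPM in basal and from 117 ± 2.00 to 170 ± 22.3 CPM in luminal cells, a difference of 0.89 ± 0.18 (adjusted p = 0.0324). That call was lost without young basal replicate 1 (adjusted p = 0.0588), young luminal replicate 1 (0.0698) or 3 (0.0882), or old luminal replicate 3 (0.0503). Ccnd2, like Id1, had higher levels in basal cells, at 244 (young) and 246 CPM (old) against 6.85 and 25.9 CPM in luminal cells. Summed basal markers were also higher in old than in young luminal libraries. The part of other cells in these 2 differences was not tested. Btg2, an antiproliferative p53 target, went from 211 ± 4.55 to 280.2 ± 39.9 CPM in basal and from 534 ± 56.6 to 396 ± 33.9 CPM in luminal cells, a difference of -0.84 ± 0.18 (adjusted p = 0.0419). It lost its call under most alternatives, with adjusted p of 0.0590 to 0.205 without single libraries other than old basal replicate 1 and old luminal replicate 3.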

How the results depend on the processing

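For Cdkn1a and Trp53 both cell type differences, and for Cdkn1a the luminal age difference, kept direction and call under every setting tried. Counts of calls among the 9 tested genes moved as follows. Between cell types at 3 months 3 were called at a minimum of 10 CPM, which leaves out the INK4 genes, and 3 to 5 with single libraries left out. At 24 months 5 were called on TPM (Cdkn2c and Mdm2 added) and 6 on fragment-equivalent counts (Cdkn2b, Cdkn2c and Cdkn2d added), and 2 to 3 with single libraries left out. With age in basal cells DESeq2 called 2, Cdkn1a and Cdkn2c, the latter under the limit in both groups. Left-out libraries gave 0 to 1 (Cdkn2b, without young basal replicate 2), as they did for the difference of the age responses. For that difference DESeq2 also called 2. With age in luminal cells 1 was called throughout.

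Over all genes, 176 were called with age in basal cells, against 774 in DESeq2, 104 on TPM, 311 on fragment-equivalent counts and 73 to 266 with single libraries left out. In luminal cells 235 were called, against 731 in DESeq2, 550 on fragment-equivalent counts and 124 to 331 with libraries left out. For the difference 116 were called, against 640 in DESeq2 and 54 to 172 with libraries left out. For all of these but the difference, only libraries of the 2 groups compared were left out. Between cell types the ranges were 4588 to 5156 at 3 months and 4248 to 4527 at 24 months. RLE factors moved the median of all genes by 0.13 on the log2 scale at 24 months and by 0.11 for the difference, and the share of higher calls with age in basal cells from 81.8% to 61.6%. That share was 67.9% without a filter, 61.6% in DESeq2, 58.7% at a minimum of 10 CPM, 54.8% on TPM, 51.8% on fragment-equivalent counts and 48.4% with only the 2 groups. The cause of these shifts was not tested.

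Directions turned only in uncalled results. Between cell types, Mdm2 at 3 months was -0.31 on TPM, and Cdkn1c at 24 months was 0.0731 with RLE factors, 0.0733 in DESeq2, 0.0651 at a minimum of 10 CPM, 0.0103 without a filter and 0.0187 with 2 groups. With age in basal cells Rb1 was -0.0409 with RLE factors, -0.0408 in DESeq2, -0.0393 at a minimum of 10 CPM, -0.00893 without a filter, -0.0284 with 2 groups and -0.12 on TPM, and Cdkn2d was 0.15 on TPM. In luminal cells Cdkn2c was 0.0939 and Rb1 0.0169 on TPM, and for the difference Rb1 was 0.0182 with RLE factors, 0.0183 in DESeq2 and 0.13 on TPM. With libraries left out, Cdkn1c ranged from -0.47 to 0.13 and from -0.33 to 0.20 between cell types at 3 and 24 months. In basal cells with age Cdkn1c ranged from -0.0586 to 0.54, Cdkn2d from -0.67 to 0.85 and Rb1 from -0.12 to 0.27. In luminal cells Cdkn2b ranged from -0.98 to 0.17, Cdkn2c from -0.49 to 0.59, Rb1 from -0.36 to 0.25 and Trp53 from -0.13 to 0.38. For the difference Cdkn1b ranged from -0.0874 to 0.28, Cdkn1c from -0.19 to 0.48, Cdkn2d from -0.36 to 1.16 and Rb1 from -0.42 to 0.18.

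Replicate numbers were not taken as pairing, since the labels tie them to no shared mice and residuals of same-numbered basal and luminal libraries of 1 age correlated at 0.0115 to 0.187 over 6270 genes (other numbers -0.131 to 0.0252). As a hint from the data, 11 of 12 libraries correlated best with one of their own number. With a replicate block, 4910, 4684, 194, 273 and 116 genes were called in the 5 comparisons (5, 3, 1, 1 and 0 of the 9 genes). For the cell type comparisons and the difference, the block was age with number. For the age comparisons it was the number alone, although young and old libraries hold different mice. Same-numbered young and old libraries of 1 cell type correlated at -0.0826 to 0.0567, and other numbers at -0.0705 to 0.102. Neither labels nor correlations thus give a basis for the age block. It called Cdkn1a with age in basal cells (log2 0.51, edgeR adjusted p = 0.0361). The blocks turned Cdkn2d to 0.19 in basal cells and to -0.13 for the difference and Cdkn2c to 0.15 in luminal cells, all uncalled.

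Depth limits these data, with 16 to 73 reads per fragment: INK4 genes rest on at most 22.2 fragments in a group.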
